A study of Homo sapiens with 8 samples.

Results

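The RNA exosome is a barrel-shaped complex that degrades or trims RNA from its 3′ end, in the nucleus and in the cytoplasm. It matures ribosomal and small nucleolar RNA and removes faulty transcripts. In human cells the core has no ribonuclease activity of its own and threads RNA to the nucleases DIS3 and EXOSC10, so the core subunits act as a scaffold and channel. The members described here were the 9 core subunits, found by the gene symbol of each sgRNA. They were 9 of the 779 genes of the library and carried 90 of its 7855 sgRNAs, 10 for each subunit. EXOSC1, EXOSC2 and EXOSC3 form the RNA-binding cap, and the 6 others form the ring, in which EXOSC4 pairs with EXOSC9, EXOSC5 with EXOSC8 and EXOSC6 with EXOSC7.

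The cells were T1-160, derived from the triple-negative breast cancer line SUM159PT by culture in rising doses of Taxol, a drug that stabilizes microtubules. All of them expressed Cas9, had received the lentiviral EPIKOL library of sgRNAs against chromatin regulators and had been selected with puromycin in the presence of verapamil. The initial collection (AP, after puromycin selection) was represented by 2 libraries, replicates 1 and 3. The remaining cells were split and grown for 16 population doublings in DMSO (3 libraries) or in 160 nM Taxol (3 libraries), the question being which knockouts are lost or gained under the drug. Whether the replicates of a group were infected or cultured apart is not in the labels, and p-values across libraries therefore measure only the spread between these samples, which may be technical. Sequencing gave from 2045984 to 11771417 reads per library, or 260 to 1499 per sgRNA. Libraries of different groups correlated about as well as libraries of the same group in the table of Taxol and DMSO (Pearson's r across sgRNAs, 0.59 to 0.73 and 0.61 to 0.69). No plasmid library was analysed here, an sgRNA count does not show that the gene was cut, and the mRNA of the subunits was not part of these values.

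A level below is the geometric mean of the normalized counts of the 10 sgRNAs of a gene (1 added to each count), and a fold change is the difference of the mean log2 levels, with the pooled SD between libraries. The sgRNAs of a gene share their target and are not replicates of a condition. Gene calls came from robust rank aggregation (RRA), which asks whether the sgRNAs of a gene crowd at an end of the list of all sgRNAs ranked by limma, at an adjusted p under 0.05 over all 779 genes. Its p is exact for ranks drawn at random. RRA compares sgRNAs within the list, whereas limma on gene means compares libraries. Exact permutation of the libraries cannot give a p below 0.1 here, with 3 against 3 or 3 against 2.

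Growth without drug was examined first. Between the initial collection and the end of the DMSO culture, the mean fold change of all 9 exosome genes was below 0, against 36.7% of all genes, and the median over the 9 was -0.24 on the log2 scale where the median gene stood at 0.15. None of the 9 passed the RRA test for depletion (2.05% of all genes did) or for enrichment (0.128% did), and limma on gene means called none of them lower (1.41% of all genes) or higher (0.77%). At an unadjusted RRA p under 0.05, 4 were depleted (11.8% of all genes), namely EXOSC8, EXOSC2, EXOSC7 and EXOSC4, and 0 were enriched (8.09%). By limma on gene means 2 were lower at that threshold, EXOSC8 and EXOSC2 (8.73% of all genes). Centring each library on the non-targeting sgRNAs shifted every gene by -0.31, which put 71.6% of all genes below 0 beside the 9 members. The median of the members minus that of all genes was -0.39, a difference that such a shift cannot change.

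EXOSC2, an S1- and KH-domain cap protein that binds RNA at the channel entrance, had levels of 557 and 530 in AP and of 322, 374 and 334 in DMSO. The AP libraries were close to each other and both lay well above the DMSO libraries. The fold change was -0.66 ± 0.10 (SD, n = 3 and 2), with 8 of 10 sgRNAs lower and an adjusted RRA p of 0.115. EXOSC1, the cap subunit related to yeast Csl4, had 680 and 695 in AP and 532, 729 and 506 in DMSO, so that DMSO replicate 2 exceeded both AP libraries (fold change -0.24 ± 0.23). EXOSC3, the cap subunit mutated in a form of pontocerebellar hypoplasia, had 436 and 384 in AP and 348, 314 and 391 in DMSO, again with overlap (fold change -0.23 ± 0.15).

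Among the ring subunits EXOSC8 had the lowest fold change. Its level was 582 and 394 in AP and 196, 317 and 298 in DMSO. Each of the DMSO values was under both AP values, although the AP libraries themselves were far apart. The fold change was -0.85 ± 0.38 (n = 3 and 2), 7 of 10 sgRNAs were lower, and the adjusted p was 0.069 by RRA and 0.090 by limma on gene means. Among the fits without a DMSO library, it passed the RRA threshold without replicate 2 (adjusted p = 0.022) or replicate 3 (adjusted p = 0.033). It did not pass without DMSO replicate 1. Leaving out an AP library keeps a single one in that group, so only the fold change is given. That value was -1.13 without AP replicate 3 and -0.57 without AP replicate 1, so its size turned on the AP library kept.

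EXOSC4, which joins EXOSC9 in the ring, had 502 and 460 in AP and 414, 391 and 298 in DMSO, without overlap (fold change -0.40 ± 0.21, exact RRA p = 0.043, adjusted p = 0.375). EXOSC7 had 429 and 330 in AP and 315, 360 and 226 in DMSO (fold change -0.35 ± 0.32, exact RRA p = 0.032, adjusted p = 0.326). In EXOSC7 a DMSO library reached above the lower AP library. The fold changes of EXOSC5, EXOSC6 and EXOSC9 were -0.21 ± 0.26, -0.18 ± 0.25 and -0.18 ± 0.33, each with overlapping libraries. Single libraries weighed heavily on these values, which were close to 0 for EXOSC5 without DMSO replicate 1 (-0.03) and, without DMSO replicate 3, for EXOSC6 (-0.03) and EXOSC9 (-0.05). Leaving out another library gave -0.32, -0.33 and -0.42 at the other extreme. For EXOSC9 the median over sgRNAs was of the other sign (0.07). In all, 3 members had every DMSO library below every AP library (EXOSC2, EXOSC4 and EXOSC8), where 14.1% of all genes did, and none had every DMSO library above (29.3% of all genes). In the order of fold changes, no neighbouring pair was separated by more than 1.33 times the standard error of the gap.

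**Figure D1:**
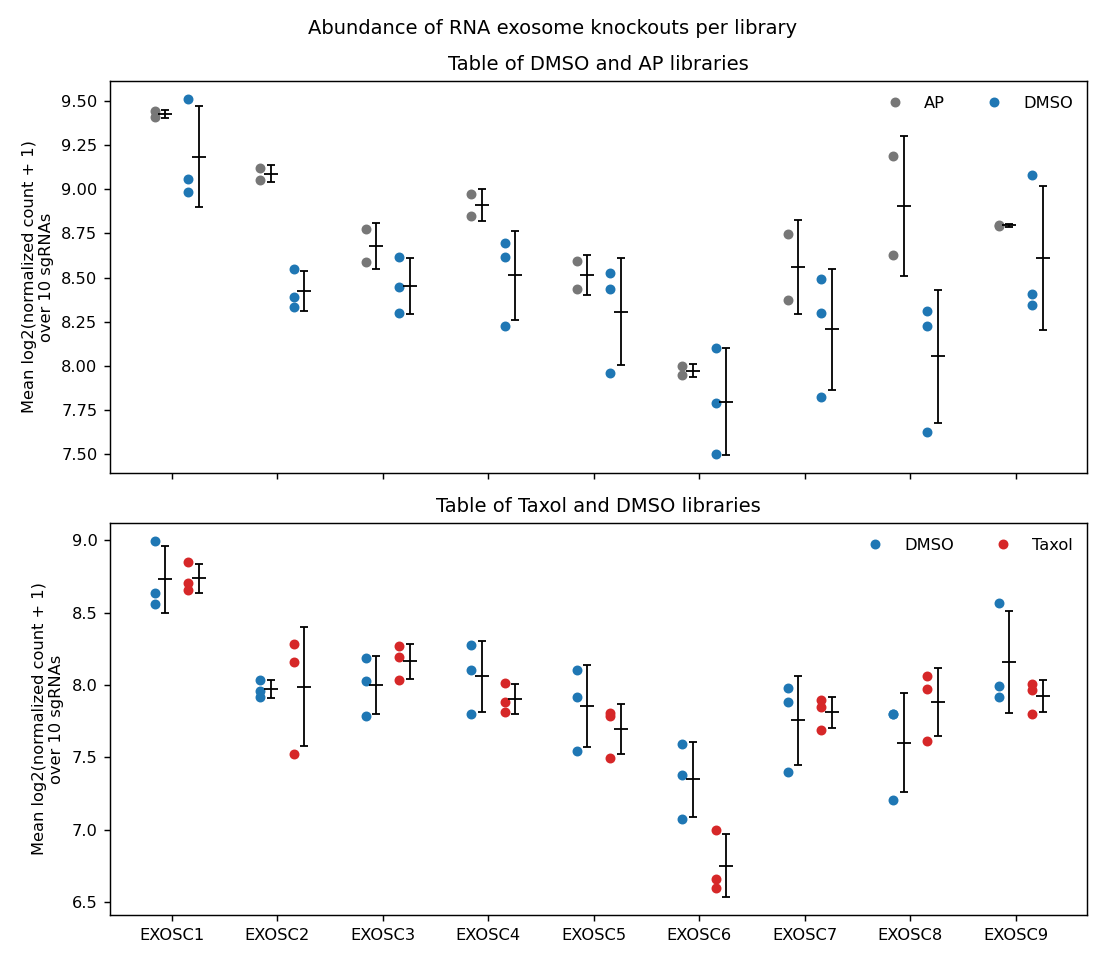
Mean log2(normalized count + 1) over the 10 sgRNAs of each exosome gene, with a point per library, in the table of DMSO and AP libraries (top) and that of Taxol and DMSO libraries (bottom); the dash and bars beside the points are the mean and SD. EXOSC2, EXOSC4 and EXOSC8 are lower in all DMSO than in all AP libraries, and EXOSC6 is lower in all Taxol than in all DMSO libraries. The tables were scaled separately, so heights are compared within a panel.

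The level of a gene among all 779 genes puts the same libraries in another unit, in which not every member fell. The median percentile of the 9 members was 32.0 and 22.3 in the AP libraries and between 16.9 and 17.9 in the DMSO libraries. Thus the members were already mostly low at the initial collection, 6 and 8 of them lying below the median gene. EXOSC6 was at percentile 4.9 and 2.6 in AP and at 5.6, 7.3 and 3.8 in DMSO, so it did not fall. EXOSC1 was at 78.2 and 80.0 in AP and at 48.5, 61.3 and 44.6 in DMSO. The groups overlapped for EXOSC5, at 20.6 and 12.6 in AP and 8.4, 15.6 and 23.8 in DMSO. They overlapped for EXOSC3, EXOSC7 and EXOSC9 as well. EXOSC8 moved from 62.8 and 22.3 in AP to between 4.9 and 14.1 in DMSO.

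Single sgRNAs of a subunit spread widely. Of the 90 exosome sgRNAs, 56 had a fold change below 0 between AP and DMSO (43.2% of all sgRNAs did), 14 were lower at an unadjusted limma p under 0.05 (3.65% of all) and 2 were higher (3.21% of all). None passed after adjustment, as for all 7855 sgRNAs. Every subunit had at least 1 sgRNA lower at that unadjusted threshold, and EXOSC8 had the most with 3. The share of all genes with as many is not given in any comparison, so such counts per gene have no reference. The lowest of all was sgRNA 9 of EXOSC4 (numbered in the order of the library identifiers), with 848 and 309 normalized counts in AP and 71.0, 113 and 87.2 in DMSO, a fold change of -2.52 (SE 0.70, unadjusted p = 0.002). This sgRNA was low in each DMSO library. The 3 sgRNAs of EXOSC8 were numbers 5, 6 and 10, with fold changes of -1.92, -1.86 and -1.94. EXOSC6 held both the sgRNA with the highest fold change of the 90, number 5 at 1.87, and number 6 at -2.04. Within EXOSC6, then, sgRNAs against the same gene went in opposite directions and the gene mean was near 0.

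Listed ribosomal protein and nucleolar genes, whose products share the ribosome synthesis pathway with the exosome, gave a point of reference. The ribosomal list held 13 genes with RPL or RPS symbols, and the ribosomal protein gene RPLP0, also in the library, was not on it (-0.38). All 13 listed genes were below 0 between AP and DMSO (median -0.58, lowest RPS18 at -1.11), and 2 of them were called depleted. The nucleolar list held those genes of a chosen set that were in the library, which may hold other nucleolar genes. Of its 8 nucleolar factors 7 were below 0 (median -0.48, lowest TRMT112 at -1.14), and 2 were called. The exosome median of -0.24 lay between these and the median gene.

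Culture in Taxol was next compared with the initial collection. The fold changes of all 9 members were again below 0, against 32.3% of all genes, with a median of -0.37 beside 0.20 for the median gene. The difference between these medians was -0.57. Centring on the non-targeting sgRNAs shifted every gene by -0.53 and put 81.1% of all genes below 0. EXOSC6 and EXOSC2 passed the RRA test, 2 of 9 members where 4.62% of all genes were called depleted, and no member was called enriched (1.41% of all genes). At an unadjusted RRA p under 0.05, 5 members were depleted (13.1% of all genes), EXOSC4, EXOSC5 and EXOSC8 being the others, and 0 were enriched (8.34%). Limma on gene means called no member, nor any gene, lower after adjustment, and none of the members higher (0.128% of all genes). It had 4 members lower at an unadjusted p under 0.05 (EXOSC2, EXOSC4, EXOSC6 and EXOSC8; 6.29% of all genes).

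EXOSC6, a ring subunit with an RNase PH-like fold, had levels of 195 and 189 in AP and of 103, 137 and 109 in Taxol. The groups did not overlap, and 9 of 10 sgRNAs were lower. Its fold change was -0.73 ± 0.18 (n = 3 and 2), with an RRA p of 3.53e-04 and an adjusted p of 0.016. EXOSC2 had 425 and 407 in AP and 198, 336 and 310 in Taxol, and Taxol replicate 1 was the lowest of these. Its fold change was -0.60 ± 0.34, with 8 of 10 sgRNAs lower and an adjusted RRA p of 0.045. Both calls depended on single libraries. Without AP replicate 3, Taxol replicate 1 or Taxol replicate 3 the adjusted p of EXOSC6 was 0.068, 0.151 and 0.260, and that of EXOSC2 was 0.460, 0.142 and 0.174. The fold change of EXOSC2 was -0.36 without Taxol replicate 1. By limma on gene means the adjusted p was 0.095 for EXOSC6 and 0.171 for EXOSC2.

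Libraries were separated in 7 of the 9 members, each Taxol library lying below both AP libraries, where 14.5% of all genes were. The exceptions were EXOSC3 and EXOSC7. EXOSC8 had 444 and 302 in AP and 210, 270 and 290 in Taxol (fold change -0.52 ± 0.30, adjusted p = 0.275 by RRA), and -0.25 without AP replicate 1. EXOSC4 had 383 and 353 in AP and 242, 278 and 255 in Taxol (fold change -0.51 ± 0.10, adjusted p = 0.160 by RRA). EXOSC4 thus had little spread in either group. The fold changes were -0.37 ± 0.10 for EXOSC9, -0.32 ± 0.16 for EXOSC5, -0.25 ± 0.18 for EXOSC7 and -0.19 ± 0.08 for EXOSC1. EXOSC3 was at -0.02 ± 0.12, its median over sgRNAs was 0.30, and its mean was above 0 (0.07) without AP replicate 1. The cap had a median of -0.19 and the ring one of -0.44, a difference that was not tested.

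Of the 90 sgRNAs, 62 were below 0 between AP and Taxol (42.2% of all), 14 were lower at an unadjusted limma p under 0.05 (3.90% of all) and 0 were higher (2.24% of all). None passed after adjustment, in either direction, here or among all 7855. EXOSC4 and EXOSC6 had 3 each among the 14. Those of EXOSC6 were numbers 3, 6 and 8, with fold changes of -1.57, -1.57 and -1.45. Number 3 was thinly counted, with 142 and 55 reads in AP and 31, 8 and 7 reads in Taxol. For the listed ribosomal proteins the same comparison gave a median of -0.42, with 13 of 13 below 0 and 4 called depleted (lowest RPS18 at -0.85), and for nucleolar factors -0.30, with 7 of 8 below 0 and 3 called (lowest TRMT112 at -0.92).

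**Figure D2:**
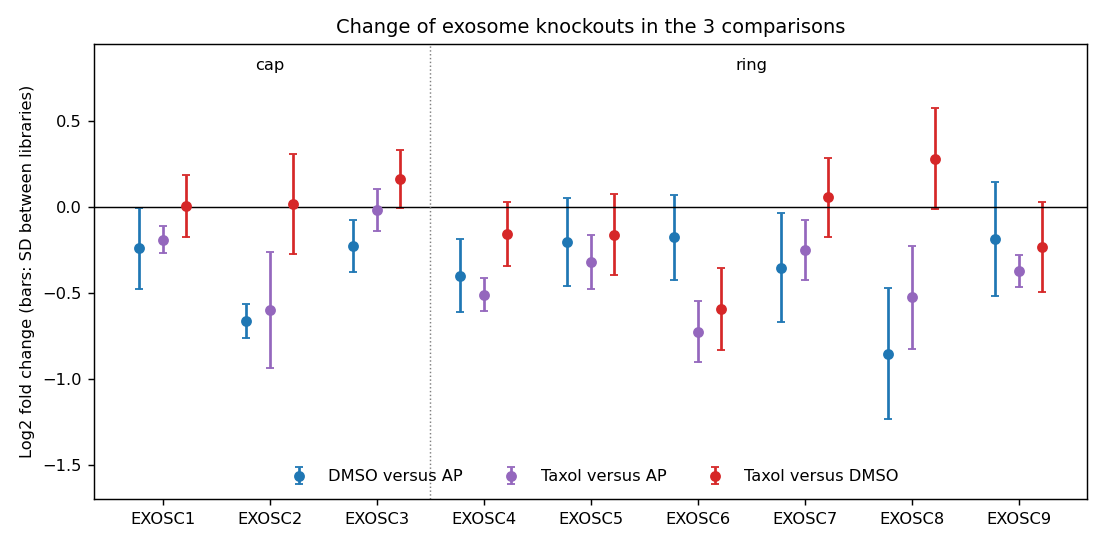
Log2 fold change of each exosome gene (mean over 10 sgRNAs; bars, pooled SD between libraries) in the 3 comparisons, the cap left and the ring right of the dotted line. Against AP the 9 genes lie below 0 in both cultures, and between Taxol and DMSO they scatter around 0 apart from EXOSC6 at -0.60. Each pair of comparisons shares a group of libraries.

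Taxol and DMSO cultures were then compared directly, which asks about the drug itself. The values of the members lay around those of all genes. The median of the 9 fold changes was 0.01, beside 0.03 for all genes, and 4 of 9 were below 0, where 44.9% of all genes were. No member was called depleted (0.257% of all genes) or enriched (0.128%) by RRA, and none by limma on gene means (0 lower, 0.128% higher among all genes). At an unadjusted RRA p under 0.05 EXOSC6 and EXOSC3 were depleted (4.75% of all genes) and EXOSC8 was enriched (6.55%). By limma on gene means only EXOSC6 was lower at that threshold (1.54% of all genes), and no member was higher (4.62%). The signs of small values depended on the scaling. Centring on the non-targeting sgRNAs, which had a median of 0.11 here, moved the median gene by -0.17 and put 8 of the 9 members below 0, EXOSC8 being the exception, and 68.5% of all genes. Over all genes the calls then went from 2 depleted and 1 enriched to 2 and 4.

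EXOSC6 had levels of 165, 192 and 134 in DMSO and of 95.7, 127 and 100.1 in Taxol. All Taxol libraries lay below all DMSO libraries, the highest Taxol library coming close to the lowest DMSO one; no other member was separated, below (4.49% of all genes) or above (6.29%). The fold change was -0.60 ± 0.24 (n = 3 and 3), with 8 of 10 sgRNAs lower, and only 5 of the 779 genes had a lower one. The exact RRA p was 0.006 (adjusted p = 0.820), and limma on gene means gave an adjusted p of 0.640. With the replicate number as a block the RRA p was 0.009 (adjusted p = 0.866). Within same-numbered libraries EXOSC6 was lower in Taxol in 3 of 3 pairs, by log2 differences of -0.78, -0.59 and -0.42. Of the other members, EXOSC5 was lower in all 3 pairs (11.7% of all genes were) and EXOSC8 and, by as little as 0.0047, EXOSC3 were higher. The fold change of EXOSC6 stayed between -0.73 and -0.47 when any library was left out. At the level of sgRNAs, number 5 had 178, 77.5 and 102 normalized counts in DMSO and 42.2, 61.1 and 33.0 in Taxol. Number 10 had 398, 1146 and 734 in DMSO and 262, 262 and 174 in Taxol. These 2 were lower at an unadjusted limma p under 0.05 (fold changes of -1.33 and -1.60), and they are not among the 3 that were lower against AP. Number 5 had risen between AP and DMSO (21.0 and 80.7 in AP, then 238, 111 and 138), a comparison that shares the DMSO libraries. Number 6 went the other way and lay higher in every Taxol library (17.7, 32.3 and 29.5 in DMSO, 35.2, 36.2 and 33.0 in Taxol). It was thinly counted (19, 55 and 25 reads in DMSO, 50, 16 and 15 in Taxol), and its unadjusted limma p was 0.313. Of the 7775 gene-targeting sgRNAs, 369 lay higher in every Taxol library.

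EXOSC8, with EXOSC5 a pair of the ring, had 147, 222 and 222 in DMSO and 195, 250 and 266 in Taxol. The groups overlapped, and within same-numbered libraries the Taxol level was the higher in 3 of 3 pairs, by 0.41, 0.17 and 0.26 on the log2 scale (16.9% of all genes were higher in all 3). Its fold change was 0.28 ± 0.29, with 5 of 10 sgRNAs higher, an RRA p for enrichment of 0.019 and an adjusted p of 0.519. With the replicate number as a block the unadjusted p was 0.061. The fold change was 0.08 without DMSO replicate 1, the library with the lowest level. Number 8 had 290, 277 and 269 normalized counts in DMSO and 1289, 366 and 1312 in Taxol, so that the Taxol libraries differed among themselves more than the DMSO ones. Number 10 had 107, 136 and 91.9 in DMSO and 210, 240 and 420 in Taxol. Both were higher at an unadjusted limma p under 0.05. Number 1 went the other way and lay lower in every Taxol library (234, 239 and 416 in DMSO, 147, 226 and 194 in Taxol). Its unadjusted limma p was 0.282, and 334 of the 7775 gene-targeting sgRNAs lay lower in every Taxol library.

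**Figure D3:**
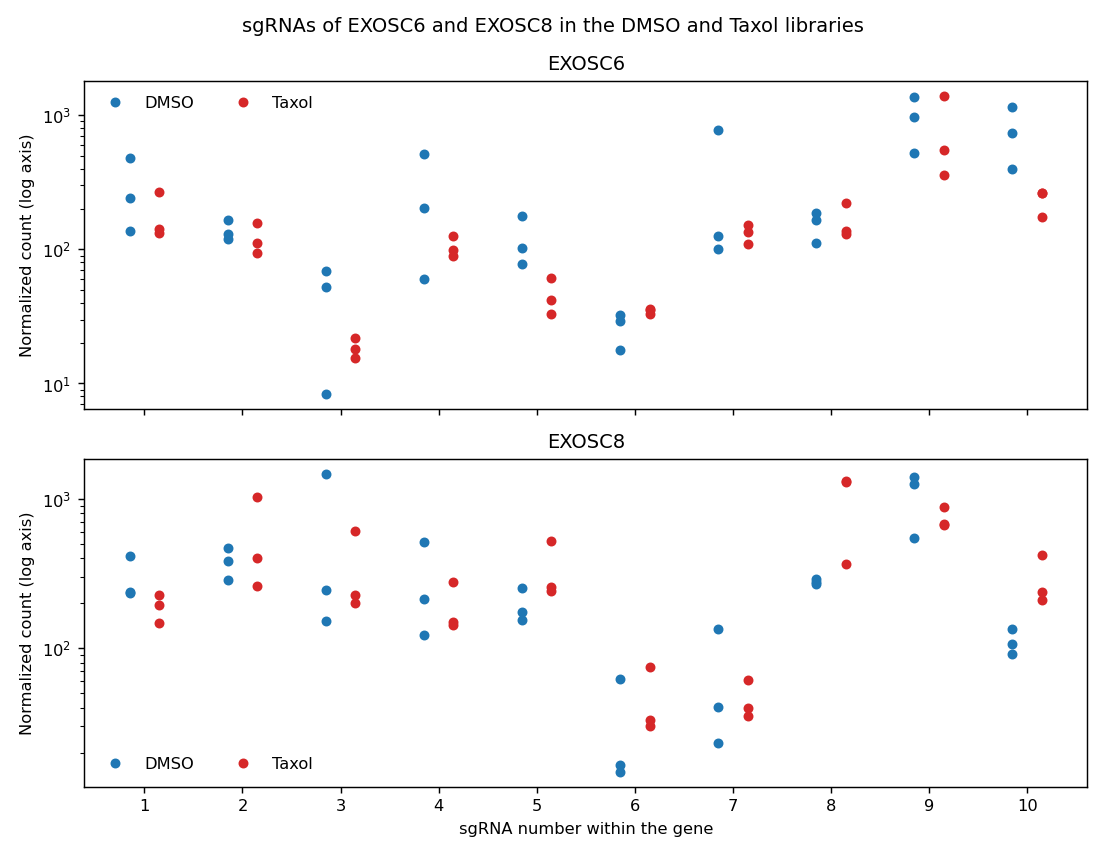
Normalized counts (log axis) of the 10 sgRNAs of EXOSC6 and of EXOSC8 in the 3 DMSO and 3 Taxol libraries, a point per library. For EXOSC6, sgRNAs 5 and 10 lie lower in every Taxol library, and for EXOSC8, sgRNAs 8 and 10 lie higher in every Taxol library. In the other direction, sgRNA 6 of EXOSC6 lies higher and sgRNA 1 of EXOSC8 lower in every Taxol library, neither at an unadjusted limma p under 0.05.

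EXOSC3 reached an unadjusted RRA p of 0.014 for depletion (adjusted p = 0.820) although its mean was above 0. With the replicate number as a block this RRA p was 0.012 (adjusted p = 0.866). Its levels were 260, 220 and 291 in DMSO and 261, 308 and 292 in Taxol, and the fold change was 0.16 ± 0.17 with 7 of 10 sgRNAs higher. The sgRNAs were divided. Numbers 7 and 9 were lower, at -1.44 and -1.58, and number 1 was higher, at 1.52, each at an unadjusted limma p under 0.05.

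The other 6 members moved by less than the standard error or little more. The values were 0.01 ± 0.18 for EXOSC1, 0.02 ± 0.29 for EXOSC2, 0.06 ± 0.23 for EXOSC7, -0.16 ± 0.19 for EXOSC4, -0.16 ± 0.24 for EXOSC5 and -0.23 ± 0.26 for EXOSC9, with standard errors by limma between 0.22 and 0.23. With a library left out, EXOSC4 ranged from -0.29 to -0.05 (the latter without DMSO replicate 1), EXOSC5 from -0.32 to -0.04 (without DMSO replicate 3) and EXOSC9 from -0.35 to -0.03 (without DMSO replicate 2). EXOSC2 illustrates the spread, with 240, 262 and 248 in DMSO and 183, 311 and 285 in Taxol. Its DMSO libraries nearly coincided, while the Taxol libraries lay on both sides of them. In the order of the 9 fold changes the widest gap was that between EXOSC6 and EXOSC9, 0.36, which was 2.35 times its standard error, and no other gap exceeded 1.02 times its standard error. Of the ring pairs, EXOSC4 and EXOSC9 stood at -0.16 and -0.23, EXOSC5 and EXOSC8 at -0.16 and 0.28, and EXOSC6 and EXOSC7 at -0.60 and 0.06.

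Across the 90 sgRNAs, 47 were below 0 between DMSO and Taxol (47.8% of all), 5 were lower (1.55% of all) and 3 higher (2.01% of all) at an unadjusted limma p under 0.05, and none passed after adjustment, as for all 7855. The 5 were numbers 7 and 9 of EXOSC3, number 2 of EXOSC5 and numbers 5 and 10 of EXOSC6. The 3 were number 1 of EXOSC3 and numbers 8 and 10 of EXOSC8. No sgRNA of EXOSC1, EXOSC2, EXOSC4, EXOSC7 or EXOSC9 reached that threshold. The fold changes of all members' sgRNAs ran from -1.60 to 1.61. The listed ribosomal protein genes had a median of 0.14 (4 of 13 below 0, lowest RPL38 at -0.21) and nucleolar factors of 0.17 (3 of 8 below 0, lowest NPM1 at -0.31), with none called.

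**Figure D4:**
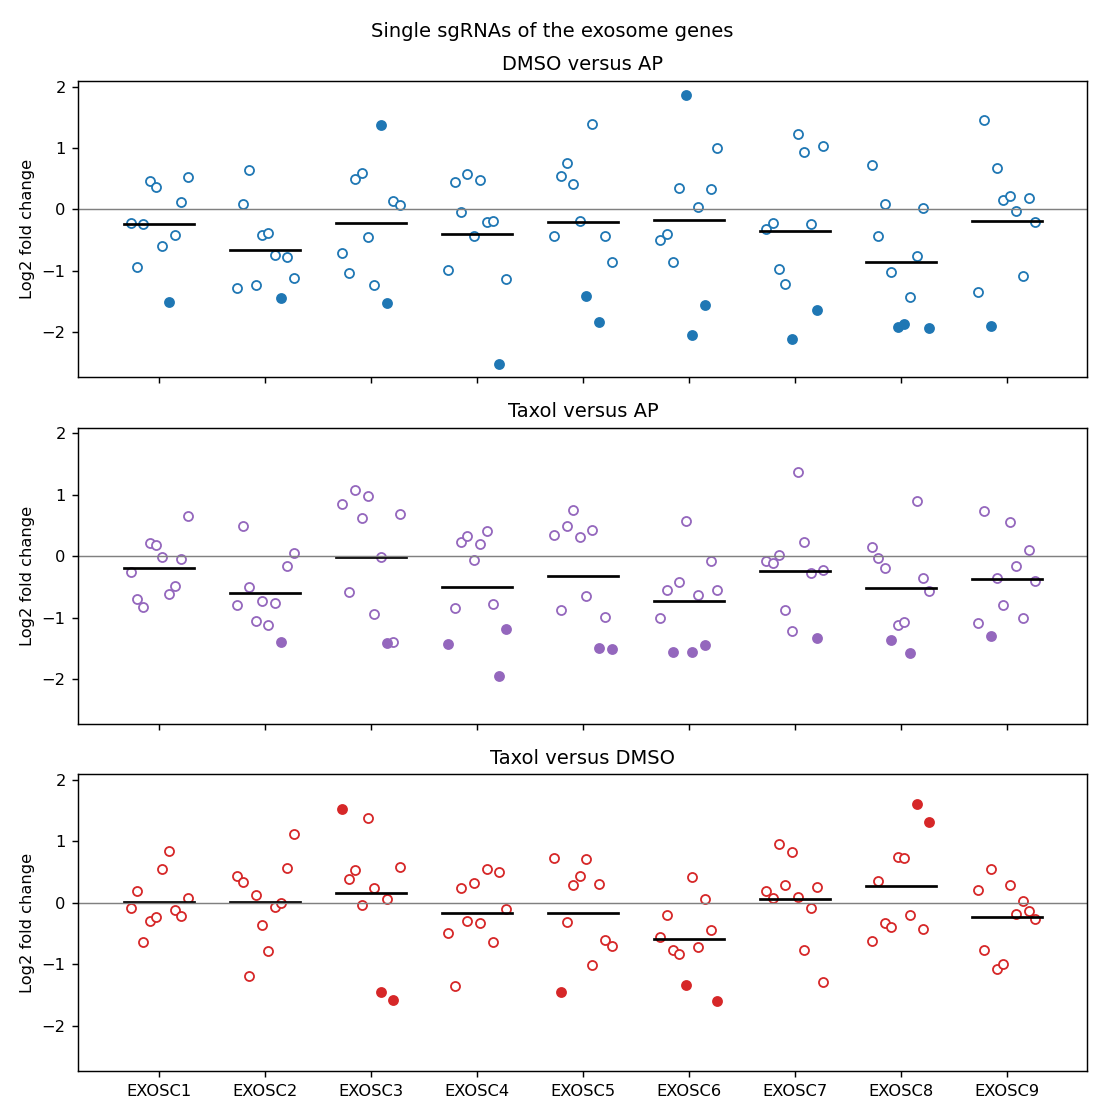
The 10 sgRNAs of each exosome gene by their log2 fold change in the 3 comparisons; filled points have an unadjusted limma p under 0.05 and the line is the mean of the gene. In each panel sgRNAs of the same gene lie on both sides of 0, and the filled points are mostly below 0 against AP (14 lower beside 2 higher in DMSO, 14 beside 0 in Taxol).

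The mean log2 level of the 9 members was 7.87, 8.09 and 7.87 in the DMSO libraries and 7.71, 7.98 and 7.93 in the Taxol libraries, so the groups overlapped. The genes whose levels followed this mean most closely over the 6 libraries were DEK (Pearson's r = 0.99), EP400 (0.94), USP36 (0.92), CDK9 (0.91) and SSRP1 (0.90), the top 5 of all genes ranked in this way. The 6 points share their scaling and include both groups, so these values are descriptive. The members themselves were not uniform. Over the same libraries the 36 pairs of members had r between -0.73 and 0.81, with a median of 0.31, and 25 of the 36 were above 0.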

How the data were processed

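The authors deposited sgRNA tables from MAGeCK 0.5.8, per the submitters' processing notes, in which a cell lists the normalized counts of all libraries in its group; aligner options and genome build are not given in the sources used here. The 3 tables were scaled separately, so tests stayed within a table. Values were taken in replicate order. AP cells list 3 values but the labels cover replicates 1 and 3 only, so the first and the third were used, leaving 2 value columns unused. Deposited fold changes and p-values per sgRNA and per gene are the authors' own comparisons and were not used. A row without a gene was dropped from each table. All 9 members were kept, with no filter.

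Per sgRNA, log2(normalized count + 1) was tested with limma 3.58.1 (R 4.3.3), ranks were aggregated over the lowest or highest 25% with the exact null distribution of ordered ranks, and p-values were adjusted by Benjamini-Hochberg. The steps were tested on simulated data in which all sgRNAs of a changed gene moved by the same amount. Recovery of genes whose sgRNAs are divided, as here, was not tested. Dividing by the value of 1 read gave whole reads (within 0.1 read) for 97.9% to 99.99% of values. In Taxol and DMSO, same-numbered libraries deviated together (r = 0.17, 0.13 and 0.21), which was taken as pairing. Against AP they did not. The main tests held no term for this pairing, and the replicate block was fitted as an alternative. Named genes were all members, the lowest member of each reference list, and the 5 genes most alike. Members and lists were chosen with earlier results of these data known. A planned list of partner genes is not reported here.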

Additional observations from a re-analysis of the deposited data

How the results depend on the processing

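The settings tried were a pseudocount of 10, leaving out sgRNAs with a mean under 50, centring on non-targeting sgRNAs or on the median sgRNA, the median over sgRNAs, limma on gene means, the lowest or highest 10% of ranks, ranks by fold change, the replicate block, each library left out and, chosen after seeing the data, voom on recovered reads. A planned quasi-likelihood count test was not run. The cause of each change below was not tested. For fits with a library left out, shares of all genes or sgRNAs are not given, so the counts of those fits have no reference. The ranges against AP include fits that keep a single AP library. In both cultures the fewest sgRNAs lower against AP came from the fit without AP replicate 1.

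Between Taxol and DMSO, centring on non-targeting sgRNAs gave a median of -0.16 with 8 members below 0 and turned EXOSC1 (-0.16), EXOSC2 (-0.15), EXOSC3 (-0.0061) and EXOSC7 (-0.11); EXOSC1 was also turned by a pseudocount of 10 (-4.69e-04) and by the median over sgRNAs (-0.10). At unadjusted p, limma on gene means called 1 member depleted and 0 enriched, and the ranks by fold change and the replicate block each called 0 enriched; the block changed no other count of members between Taxol and DMSO. With a library left out, the median ranged from -0.13 to 0.051, members depleted from 1 to 3 and enriched from 0 to 1, sgRNAs lower from 2 to 7 and higher from 0 to 3 (all unadjusted), EXOSC1 from -0.080 to 0.14, EXOSC2 from -0.13 to 0.25 and EXOSC7 from -0.12 to 0.17.

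Between DMSO and AP, centring on non-targeting sgRNAs gave a median of -0.55 and 0 sgRNAs higher at unadjusted p, with 71.6% of all genes below 0. Limma on gene means gave 2 members depleted at unadjusted p. EXOSC8 alone passed the adjusted threshold, 1 member depleted, by ranks of fold change and with the replicate block. AP has no replicate 2, so the block fit took its fold changes from replicates 1 and 3. Its median (-0.42) was the same as without DMSO replicate 2, so the block is not a separate check here. With the block 1 sgRNA was higher at unadjusted p. The median over sgRNAs turned EXOSC9 (0.068). With a library left out, members depleted ranged from 0 to 1 (unadjusted 2 to 5) and the median from -0.42 to -0.19. At unadjusted p, members enriched then ranged from 0 to 1, sgRNAs lower from 4 to 18 and sgRNAs higher from 0 to 5.

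Between Taxol and AP, centring on non-targeting sgRNAs gave a median of -0.90 and 31 sgRNAs lower at unadjusted p. It shifted every gene by -0.53 and put 81.1% of all genes below 0. The share of all sgRNAs lower under this centring is not given, so the count of 31 has no reference. Members depleted were 0 by limma on gene means, 0 with 10% of ranks and 1, EXOSC6, by ranks of fold change. With the replicate block 1 sgRNA was higher at unadjusted p, and the fold changes were those without Taxol replicate 2. EXOSC3 was turned by a pseudocount of 10 (0.0070) and by the median over sgRNAs (0.30). With a library left out, members depleted ranged from 0 to 2 (unadjusted 3 to 6) and the median from -0.43 to -0.25. At unadjusted p, sgRNAs lower then ranged from 3 to 17 and sgRNAs higher from 0 to 3. The fold change of EXOSC3 ranged from -0.10 to 0.071.

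The shallowest Taxol library had 2045984 reads, and some sgRNAs rest on under 10 reads in a library; the part of depth in the spread between libraries was not tested.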
